A study of Mus musculus with 4 samples.

Results

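Elavl-bound RNA sites near the starts of long protein-coding genes were examined in 2 deposited lists of HITS-CLIP peaks. HITS-CLIP crosslinks RNA to protein in living or fresh material with UV light, purifies the protein and sequences the short RNA fragments that stay attached to it. The first list comes from mouse cortex, for which the labels give 3 samples with a degenerate 5′ linker of 25 nt. The second comes from N2A, a mouse neuroblastoma cell line, for which they give 1 sample with a degenerate linker of 7 nt. No genotype or treatment is labelled, no age is given beyond the unexplained term "2month" in the name of the cortex list, and neither list gives values per sample. A peak was counted as a start peak if it overlapped exactly 1 protein-coding gene span longer than 20 kb and its midpoint lay within 5 kb of the gene start. The start was read on the strand of the peak, as the span's first base for a peak on the + strand and its last base for one on the − strand. These conditions held for 3378 of 105110 peaks, made up of 3266 of 97775 cortex peaks (3.34%, Wilson 95% interval 3.23 to 3.45) and 112 of 7335 N2A peaks (1.53%, 1.27 to 1.83).

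The ELAV-like proteins, also called Hu proteins, carry RNA recognition motifs that bind U-rich and AU-rich stretches of RNA. In the nucleus they act on splicing and on the choice of polyadenylation site, and in the cytoplasm they affect the stability and translation of mRNAs whose 3′ untranslated regions they bind. Elavl2, Elavl3 and Elavl4 are largely neuronal, and Elavl1 is made in most cell types. Binding close to a gene start takes place on the 5′ untranslated region, the first exons or, in a long gene, mostly the first intron of the new transcript. The gene table used here gives spans of GRCm38.p6 without exons, introns or untranslated regions, so a start peak could not be placed in one of these.

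Marker genes were read as the number of peaks in their spans, over all deposited peaks. All 5 neuron markers (Rbfox3, Snap25, Syt1, Map2 and Camk2a) held cortex peaks, 294 together, while 3 of them held N2A peaks, 6 together. Of the 5 astrocyte markers 4 held cortex peaks (29 together), and all 4 oligodendrocyte markers did (39), whereas none of these 9 held an N2A peak. None of the 4 microglia markers held a peak in either list. Of the 5 neuroblastoma markers 3 held cortex peaks (6 together) and 4 held N2A peaks (13). The lists hold no read depth, so a gene without a peak may be unbound, not expressed or under the detection limit. Fewer cells of a type and less RNA per cell cannot be told apart in such samples.

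The reference sequence under start peaks could be read only where a peak lay in the window from 250 nt before to 50 nt after a transcription start that RefSeq lists for the gene (GRCm38.p6). Such starts can lie inside a gene span when the gene has several. For 17 cortex start peaks of 16 genes and 1 N2A start peak, the whole peak fell in such a window on the gene's strand. The stretches below are the 30 nt of each peak richest in T, read 5′ to 3′ on the strand of the peak and shown with T for the U of the RNA. They show the runs of T under most of these peaks and, in Cacng2, 1 of the 2 cortex peaks without a run of 5. The authors' p was weak for Celf2 (0.0707), Gtf2a1 (0.0856) and Cdc42bpa of N2A (0.0738). For the others it ran from 2.47e-20 (Cdc42bpa of cortex) to 0.000946 (Sv2b). The peaks of Luc7l2 and Celf2 shown here are not those with the lowest p, given further down. Peak midpoints lay between −209.5 nt (Cdc42bpa of N2A) and 16.5 nt (Jph3) from the listed start. Capitals mark runs of 4 or more T. Luc7l2, Celf2, Gtf2a1 and Cacng2 follow from the rule for named genes, while Cdc42bpa, Jph3 and Sv2b were chosen after their values were seen.
Cdc42bpa, cortex: TTTTgaatgaaggagTTTTTTTTTTTTTTT
Jph3, cortex: tttcTTTTTTTTTTTTTTTTTTTTTTTTTT
Luc7l2, cortex: agaaacaTTTTatttgTTTTTgtgatagtt
Sv2b, cortex: tttcttagggactttcTTTTTTTTTTTTTT
Celf2, cortex: TTTTTTTTTTcccTTTTTTTTTTTTTaatt
Gtf2a1, cortex: gTTTTgttgagagaTTTTTTTTTTTTTgcc
Cacng2, cortex: aacggaggcgcctcgaggaccccctccctc
Cdc42bpa, N2A: cttaaaatattaaatctataTTTTatggaa

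These stretches lie at chr1:179960745-179960774 on the + strand (Cdc42bpa in cortex), chr8:121730557-121730586 on the + strand (Jph3), chr6:38555496-38555525 on the + strand (Luc7l2), chr7:75308419-75308448 on the − strand (Sv2b), chr2:7396024-7396053 on the − strand (Celf2), chr12:91589699-91589728 on the − strand (Gtf2a1), chr15:78119415-78119444 on the − strand (Cacng2) and chr1:179960854-179960883 on the + strand (Cdc42bpa in N2A). The letters TTTTT, searched on the peak's strand only, stood in 15 of the 17 cortex start peaks (88.2%, 65.7 to 96.7). They stood in 4.91% of 52160 tiles of 51 nt cut from the windows of the 7947 coding genes over 20 kb with a listed start. The tiles were cut from the upstream end and leave out most of the 50 nt after the start. They are thus mostly sequence before a listed start, and no background of transcribed sequence was available. AAAAA, a run of the same length, stood in 1 of the 17 peaks (5.88%) and in 4.26% of the tiles. The median T content was 49.0% in the 17 peaks, from 7.84% in Cacng2 to 65.4% in Jph3, and 19.6% in the tiles. Cacng2, whose product is the AMPA receptor auxiliary subunit stargazin, and Ogt, which encodes the enzyme that adds N-acetylglucosamine to nuclear and cytoplasmic proteins, were the 2 peaks without TTTTT. Later peaks of long genes that happened to lie in a window carried TTTTT as well, in 10 of 11 cortex cases. These 17 peaks were set by which peaks the reference covers, and they are 17 of 3266.

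Start peaks were a small share of the binding in long genes, and which list had the larger share depended on whether gene ends were counted. Of the peaks in exactly 1 coding gene over 20 kb, 3.84% of 85146 in cortex (3.71 to 3.97) and 2.18% of 5139 in N2A (1.81 to 2.62) were start peaks. The difference between the lists was 1.66 percentage points (Newcombe 95% interval 1.20 to 2.04). For a start window of 2 kb the difference was 0.147 points, with an interval of −0.165 to 0.389. The last 5 kb of the same genes held 15.9% of the cortex peaks and 75.8% of the N2A peaks. With these end peaks left out, an alternative added after the data were seen, start peaks made up 4.56% of the 71585 remaining cortex peaks and 9.003% of the 1244 remaining N2A peaks, and the difference turned to −4.44 points (−6.17 to −2.97). Even spreading of each gene's peaks over its span would put 4110 cortex peaks and 503 N2A peaks in the first 5 kb, so the observed counts were 0.795 and 0.223 of that. With the peaks and the length of the last 5 kb left out, even spreading gave 3240 in cortex and 112 in N2A, and the observed counts were 1.01 and 1.002 of these. All intervals here cover counting error only: peaks of 1 list come from the same libraries, PCR reads are not independent molecules, and the spread between samples is unknown. Each group has a single list, so no test between samples was possible and group, linker design and number of samples cannot be told apart.

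In cortex peaks were sparse in the first 2 kb and reached the later level from the third kb on. The first kb of the 10037 coding genes over 20 kb held 321 cortex peaks, the second 616, the third 770, the fourth 737 and the fifth 822. The bins from kb 5 to 20 held 760 peaks per kb on average. Relative to that average the first kb was at 0.422 (0.377 to 0.472) and the second at 0.810 (0.746 to 0.879), the third at 1.01 (0.940 to 1.09) and the fourth at 0.969 (0.899 to 1.04), while the fifth was at 1.08 (1.01 to 1.16). Within the first kb the count per 250 nt went up with distance, over 47, 52, 94 and 128 peaks. The whole first 5 kb stood at 0.859 of the later average (0.826 to 0.893). Genes over 50 kb, none of which ends within these 20 kb, gave 0.398 for the first kb (0.342 to 0.461).

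In N2A no such shortage was detectable at these counts. The 5 bins of 1 kb held 23, 26, 27, 14 and 22 N2A peaks, and the bins from kb 5 to 20 held 23.5 per kb. The first kb was at 0.980 of that average (0.613 to 1.49) and the first 5 kb at 0.955 (0.765 to 1.18). The average for kb 5 to 20 includes the ends of genes only just over 20 kb, where N2A peaks are dense. In genes over 50 kb, where it does not, the 5 bins held 12, 12, 11, 3 and 10 N2A peaks, the first kb was at 1.64 times the later average (0.821 to 2.98) and the first 5 kb at 1.31 times (0.913 to 1.85). The ratio of the first 5 kb thus lay below 1 over all long genes and above 1 in these, with intervals that include 1 in both. Within the genes over 50 kb the first 3 kb stood at 1.59 times the later average (1.06 to 2.35), an interval above 1. There kb 3 to 5 stood at 0.886 (0.457 to 1.58). In both lists the gene start is a little more often covered by a second coding gene, which takes a peak out of the count. Of the first kb 95.3% lay in exactly 1 coding span, against 97.0% to 98.2% of each later kb. Per kb of such length, on the strand of the gene, the first kb was at 0.399 in cortex (0.354 to 0.448) and at 0.886 in N2A (0.535 to 1.39).

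**Figure D1:**
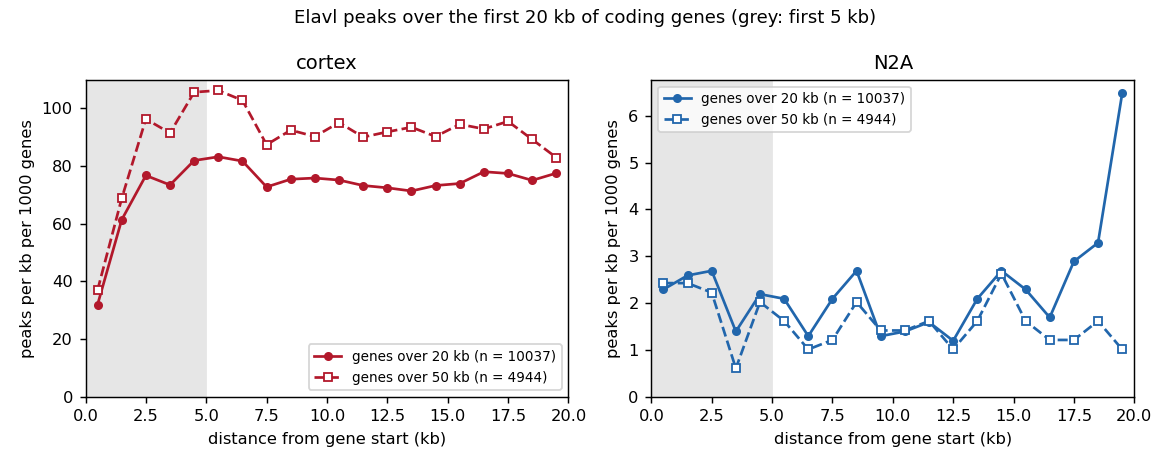
Elavl peaks per kb and per 1000 genes (vertical axis) by distance of the peak midpoint from the gene start in kb (horizontal axis), for cortex on the left and N2A on the right. Circles are the 10037 coding genes over 20 kb and squares the genes over 50 kb; the first 5 kb are shaded. The cortex lines start low in the first kb, at 0.422 of the average of kb 5 to 20, while the N2A line starts at 0.980, and its rise towards 20 kb is absent in genes over 50 kb.

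The annotated start is itself uncertain for some genes. For 7947 of the 10037 genes RefSeq lists at least 1 start, and the first listed one lay within 5 kb of the span start in 91.6% of them, at a median of 17 nt. Of the start peaks on the strand of such genes, 4.70% in cortex (117 of 2491) and 3.33% in N2A (3 of 90) lay upstream of every listed start. The midpoints of 5 cortex start peaks lay upstream of the span start itself. At the other limit, the cortex peaks just inside the 5 kb were in Map4k3 at 4998.5 nt, Zfyve9 at 4997.5 nt and Fam118b at 4993.5 nt, and those just outside were in Cnot4 at 5002 nt, Celf2 at 5003 nt and Brsk1 at 5004.5 nt. In N2A the last inside were in Ywhae at 4905 nt, Mvp at 4747.5 nt and Vipas39 at 4719 nt, and the first outside in Gpbp1 at 5159.5 nt, Smg1 at 5166 nt and Zrsr2 at 5225.5 nt.

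Each peak carries a p-value of the authors, which was used here only to grade peaks within a list. Start peaks were weaker than peaks at gene ends in both lists, and set against peaks inside genes the result differed with the distance from the start. In cortex 45.4% of start peaks had p under 0.01 (43.7 to 47.1), against 46.3% of interior peaks, those over 5 kb from both ends (45.9 to 46.7), and 69.0% of peaks in the last 5 kb (68.2 to 69.8). The difference was −0.94 points from interior peaks (−2.68 to 0.815) and −23.7 points from end peaks (−25.5 to −21.8). In N2A 33.9% of start peaks had p under 0.01 (25.8 to 43.1), against 40.5% of interior peaks (37.7 to 43.4) and 58.3% of end peaks (56.7 to 59.8). The N2A differences were −6.62 points (−15.2 to 2.98) and −24.4 points (−32.6 to −15.1). The 89 N2A start peaks from kb 1 to 5 alone differed from interior peaks by −12.5 points (−21.2 to −1.98), and the 2945 such peaks of cortex by −1.66 points (−3.49 to 0.178). The interior class was added after the data were seen, because end peaks make up most of the later N2A peaks. Set against all later peaks together, start peaks differed by −4.70 points in cortex (−6.43 to −2.95) and by −20.4 points in N2A (−28.6 to −11.1), a value that in genes over 50 kb was −10.8 points with an interval that includes 0.

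In both lists the peaks of the first kb were stronger than those from kb 1 to 5. In cortex 52.0% of its 321 peaks had p under 0.01 (46.6 to 57.4), which is 7.37 points more than the 44.7% of start peaks from kb 1 to 5 (1.63 to 13.1) and 5.71 points more than interior peaks (0.242 to 11.1). In N2A 13 of 23 peaks of the first kb had p under 0.01 (56.5%, 36.8 to 74.4), which is 28.4 points more than the 28.1% from kb 1 to 5 (6.29 to 48.1). The N2A difference from interior peaks was 16.0 points, with an interval of −3.95 to 34.0. Median p was 0.00851 in the first kb and 0.0158 from kb 1 to 5 in cortex, and 0.000421 and 0.0377 in N2A. No start peak had a p listed as 0, while 41 later cortex peaks and 3 later N2A peaks did.

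**Figure D2:**
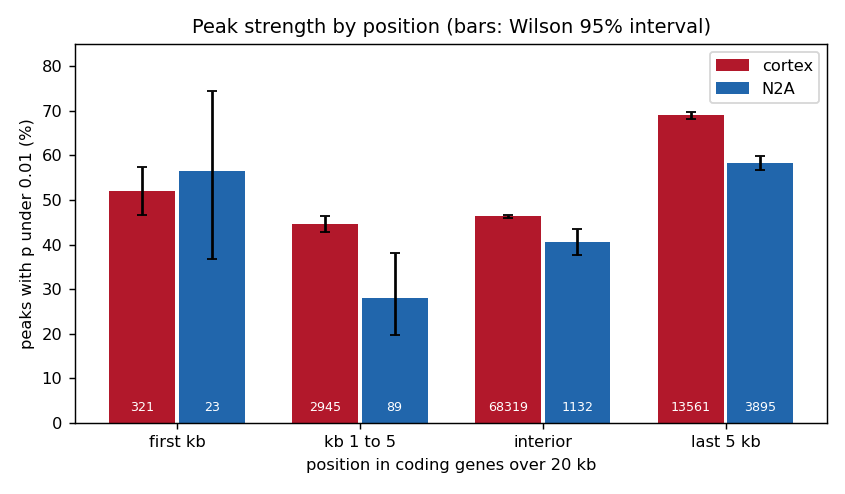
Percent of peaks with p under 0.01 (vertical axis) by position in coding genes over 20 kb (horizontal axis), for cortex (red) and N2A (blue). Bars show the share, whiskers its Wilson 95% interval, and the number at the foot of a bar is its count of peaks. Peaks of the last 5 kb stand highest in cortex, at 69.0%, and peaks of kb 1 to 5 stand lowest in N2A, at 28.1%.

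By gene, a start peak was common in cortex and rare in N2A. Of the 10037 coding genes over 20 kb, 1951 (19.4%) had at least 1 start peak in cortex and 96 (0.956%) in N2A. A peak at any position was present in 5994 genes in cortex (59.7%) and in 2100 in N2A (20.9%). Among these bound genes, 32.5% in cortex and 4.57% in N2A had a start peak. Most of these genes had a single start peak, namely 1198 in cortex and 84 in N2A. In cortex 450 genes had 2 start peaks and 303 had 3 or more, up to 10, and in N2A 8 had 2 and 4 had 3. Neighbouring start peaks of 1 gene mostly lay apart, with a median of 748 nt between midpoints in cortex (1290 pairs, 21 of them within 100 nt) and 446 nt in N2A (15 pairs, 1 within 100 nt). The start peak was the only kind of peak for 109 cortex genes and 29 N2A genes. Where a gene also had later peaks, a start peak held the lowest p of the gene in 236 of 1842 cortex genes (12.8%) and 11 of 67 N2A genes (16.4%). These shares have to be read beside the peaks of the same genes. In cortex they held 3130 start peaks and 41983 later ones, and in N2A 82 and 241.

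Genes with a start peak in cortex were not longer than the other bound genes, with a median span of 59.0 kb against 60.5 kb for genes with later peaks only. In N2A the medians were 45.01 kb and 57.1 kb. Across length classes, however, the share of all genes with a cortex start peak went from 16.1% at 20 to 50 kb, over 20.9% at 50 to 100 kb, 21.7% at 100 to 200 kb and 27.4% at 200 to 500 kb, to 35.8% of the 226 genes over 500 kb (29.9 to 42.3). In N2A the same shares were 1.04%, 0.835%, 0.834%, 1.18% and 0.442%, with overlapping intervals. A peak in the last 5 kb was present in 74.0% of cortex genes with a start peak (72.0 to 75.9) and in 71.5% of the other bound cortex genes (70.0 to 72.8). In N2A it was present in 55.2% of genes with a start peak (45.3 to 64.8) and in 83.4% of the other bound genes (81.7 to 84.9). A gene without a start peak enters the second group only through a peak elsewhere, so these 2 shares are not independent of how the groups were formed.

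**Figure D3:**
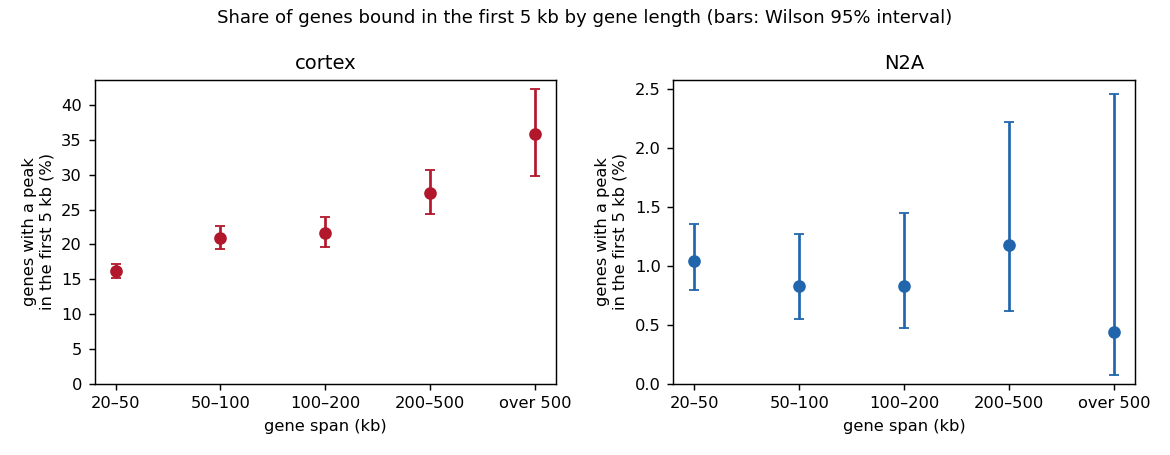
Percent of coding genes with at least 1 peak in the first 5 kb (vertical axis, scales differ) by class of gene span in kb (horizontal axis), for cortex on the left and N2A on the right. Points are shares and whiskers Wilson 95% intervals. The cortex share is 16.1% in the shortest class and 35.8% in the longest, and the N2A intervals overlap.

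Among the cortex genes with the most start peaks, Gtf3c2, which encodes a subunit of the general transcription factor of RNA polymerase III, stood apart because most of its binding was at the start. Of its 14 cortex peaks 10 lay in the first 5 kb of its 24.1 kb span, between 318 and 4976 nt from the start. Of these 10, 6 had p under 0.01, the lowest at 2.90e-32 for chr5:31175896-31175946. Megf11, which encodes a transmembrane protein with EGF-like repeats, had 9 of 19 cortex peaks within 5 kb of the end of its 329 kb span that is the start on their strand. Of them 7 had p under 0.01, down to 5.12e-42 at 3739.5 nt. The strand of Megf11 rests on its peaks alone, these 9 among them. Whether they lie at the start of Megf11 or opposite to it at its end therefore cannot be told. Ttc3, a ubiquitin ligase gene, had 7 of 62 peaks in the first 5 kb, with the lowest p at 9.43e-79 for chr16:94372134-94372185.

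Very long neuronal genes reached similar counts, with start peaks a small part of their many cortex peaks. The spans were 1136 kb in Kcnip4, 514 kb in Kcnd2, 2241 kb in Cntnap2 and 513 kb in Syt1. How these counts compare with an even spread along each span was not tested. Kcnip4, which encodes an auxiliary subunit of A-type potassium channels, had 10 start peaks among 812 cortex peaks, 2 of them on the strand opposite to the gene. Kcnd2, which encodes a pore-forming subunit of these channels, had 8 among 472. Cntnap2, for the adhesion protein that clusters potassium channels at the juxtaparanode, had 8 among 371. Syt1, whose product senses the calcium that triggers transmitter release, had 8 among 162. The lowest start p of these genes was 9.75e-23 in Kcnip4, 1.82e-09 in Kcnd2, 2.02e-32 in Cntnap2 and 2.11e-07 in Syt1. None of the 4 had an N2A start peak, and their N2A peaks anywhere numbered 0, 0, 1 and 2.

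**Figure D4:**
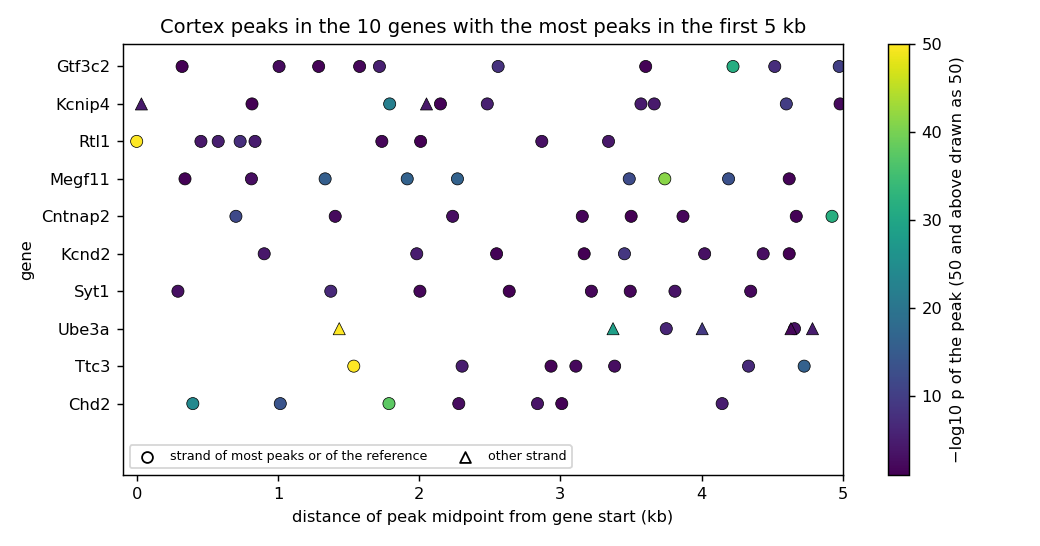
Cortex peaks in the 10 genes with the most start peaks (rows), by distance of the peak midpoint from the gene start in kb (horizontal axis); colour is −log10 of the authors' p, with 50 and above drawn alike. Circles lie on the strand of the gene, as listed in the reference or as that of most peaks, and triangles on the other one. Gtf3c2 has 10 circles, and 5 of the 7 Ube3a peaks are triangles.

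Of the 10 cortex genes with the lowest p of a start peak, 6 had that peak within 1 kb of the start. Rtl1 and Ube3a, whose peaks also lie in noncoding genes, are described further down. Vsnl1, which encodes the neuronal calcium sensor VILIP, had one at 189.5 nt (chr12:11436363-11436414, − strand) with p 6.85e-245. Hlf, a transcription factor of the PAR bZIP family with circadian expression, had its only start peak at 367.5 nt with p 8.18e-158. Epas1, for an oxygen-regulated transcription factor, had one at 30.5 nt with p 1.41e-98. Arhgef11, an activator of the GTPase RhoA, had one at 674 nt with p 4.52e-121, and Fam102a one at 682.5 nt with p 4.19e-79. Purg, for a nucleic acid binding protein of the Pur family, had its strongest peak farther in, at 2901.5 nt, with p 2.91e-109. Gabbr1, which encodes a subunit of the metabotropic GABA receptor, followed at 2909 nt with p 4.72e-80, and Ints8, a subunit of the Integrator complex, at 2228.5 nt with p 4.76e-97. Of these, Arhgef11 and Purg also had an N2A start peak.

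In N2A 4 genes had 3 start peaks each. Xpo1, the main export receptor for proteins with a leucine-rich signal, had 3 of 6 N2A peaks at the start, Xpot, the exporter of tRNA, 3 of 6, Baz1b, a chromatin-associated kinase, 3 of 7, and Tra2a, an SR-like splicing activator, 3 of 7. Each of the 4 also had cortex start peaks, namely 2 in Xpo1, 2 in Xpot, 2 in Baz1b and 6 in Tra2a. Jarid2, a partner of the Polycomb repressive complex, and Zfc3h1, which links transcripts to the nuclear exosome, had 2 each, as did Ttyh3, Dip2c, Nap1l1 (a histone chaperone) and Aldh18a1 (an enzyme of proline synthesis). The lowest N2A p by far was that of Adgrl1, the adhesion receptor latrophilin, at 663.5 nt (chr8:83900736-83900787, + strand) with 2.63e-43. Adgrl1 had 7 cortex peaks but none in its first 5 kb. Racgap1, which acts in cytokinesis, had an N2A start peak with p 2.62e-05, 5 N2A peaks in all and no cortex peak in its span.

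Site by site, the share of N2A start peaks that overlapped a cortex peak was close to that of other N2A peaks. Of the 112 N2A start peaks 49 (43.8%, 34.9 to 53.0) overlapped a cortex peak by at least 1 nt on the same strand, against 46.4% of interior and 41.8% of end peaks of N2A. The difference from interior peaks was −2.63 points (−11.9 to 7.06). Seen from cortex, 49 of 3266 start peaks (1.50%, 1.14 to 1.98) overlapped an N2A peak, against 0.768% of interior peaks and 1622 of the 13561 end peaks. Start peaks exceeded interior peaks by 0.732 points (0.362 to 1.21) and differed from end peaks by −10.5 points. By gene, 77 genes had start peaks in both lists, which is 3.95% of the 1951 cortex genes and 80.2% of the 96 N2A genes (71.1 to 86.9). The background for the second share is the 19.4% of all long coding genes with a cortex start peak. Among long coding genes with any cortex peak it is 32.5%. No such share among the genes bound in N2A was computed. Expression, on which both lists depend, was not measured here.

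The strongest shared sites of several genes are given here with their bases in both lists. They were picked because the peaks overlap, so their closeness follows from the choice. In Xpo1 the cortex peak chr11:23256571-23256622 (p 6.83e-07) overlapped the N2A peak chr11:23256578-23256629 (p 2.85e-14). In Klf7, a transcription factor gene of neuronal development, the cortex peak chr1:64121120-64121171 (p 5.92e-13) met the N2A peak chr1:64121123-64121174 (p 5.24e-06). In Rbbp4, a histone-binding protein gene, chr4:129334531-129334582 in cortex (p 2.75e-13) met chr4:129334530-129334580 in N2A (p 2.55e-05). Ext1, an enzyme of heparan sulfate synthesis, had the same coordinates in both lists, chr15:53345278-53345328, with p 0.0714 in cortex and 0.000322 in N2A. Tra2a, which had weaker N2A peaks, shared 3 sites, the strongest at chr6:49261427-49261477 in cortex (p 1.77e-42) and chr6:49261425-49261475 in N2A (p 0.00518). The scaffold gene Magi1, Gtf2a1, the pseudokinase gene Trib2, Tsc22d2, Ttyh3 and Setd1b, described below, completed the 10 genes with the strongest N2A peaks that overlapped a cortex peak. P-values of the 2 lists rest on different libraries and were not compared.

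Gene groups differed widely in how many members had a cortex start peak, from none to over 60%. These groups hold well-known genes, most of them bound somewhere in cortex. Their shares therefore have to be read beside the 32.5% of bound genes as well as the 19.4% of all long coding genes. Of 13 hnRNP and SR splicing factor genes over 20 kb, 9 had a cortex start peak (69.2%, 42.4 to 87.3), including Tra2a with 6, Hnrnpd with 2, and Syncrip and Hnrnpll with 1 each. Of 21 neuronal splicing regulators 14 did (66.7%, 45.4 to 82.8), including Qk with 6, Celf2 with 5, Celf1 with 4 and Mbnl2 with 2. The lowest p in Celf2 was 2.15e-13 at 4276.5 nt. Of 14 cleavage and polyadenylation factors 9 did (64.3%, 38.8 to 83.7), among them Cstf3 with 6, Fip1l1 and Rbbp6 with 4 each and Cpsf6 with 2. Of 15 core spliceosome and U1 snRNP genes 7 did (46.7%, 24.8 to 69.9, an interval that includes the share of all bound genes), led by Luc7l2, a U1-associated protein, with p 1.94e-58 at 4578.5 nt, and followed by Sfpq, Rbm39 and Luc7l.

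Transcription elongation and chromatin regulators had start peaks in 27 of 41 genes (65.9%, 50.5 to 78.4). Among them Chd2, a chromatin remodeller, had 7 start peaks, Aff4, a scaffold of the super elongation complex, 4, Arid2, a subunit of the SWI/SNF remodeller PBAF, 3, and the histone methyltransferase Kmt2c 1. mRNA decay and AU-rich element factors, which compete or cooperate with ELAV-like proteins on mRNAs, had them in 7 of 24 (29.2%, 14.9 to 49.2), an interval that includes the share of all bound genes. These included Cnot2 with 5 start peaks and Cnot4, Tia1 and Tial1 with 3 each. Of the 4 ELAV-like genes themselves, all of them bound in both lists, only Elavl3 had a start peak, a single one in cortex at 3525.5 nt with p 4.88e-09.

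Among neuronal surface and synapse genes, start peaks were present in 16 of 32 glutamate and GABA receptor genes (interval 33.6 to 66.4%), including Gria3 at 682.5 nt with p 2.41e-53, Grin2b at 2009.5 nt with p 2.90e-49, Gria4 and Gabbr1. They were present in 11 of 28 voltage-gated channel genes (39.3%, 23.6 to 57.6), where Scn2a had one at 155.5 nt with p 2.50e-32 and Cacna1e one at 643.5 nt with p 1.38e-16. Of 28 presynaptic and vesicle genes 11 had one (39.3%, 23.6 to 57.6), with Syn2 and Rims2 lowest in p. Of 34 adhesion genes 16 did (47.1%, 31.5 to 63.3), with Lsamp at p 1.22e-69. Of 28 cytoskeleton and axon growth genes 12 did (42.9%, 26.5 to 60.9), with Sptbn1 and Pafah1b1 first. The intervals of the channel, presynaptic, adhesion and cytoskeleton groups all include the share of all bound genes. Ubiquitin pathway genes had start peaks in 17 of 31 (54.8%, 37.8 to 70.8). Translation factors had them in 11 of 20 (55.0%, 34.2 to 74.2), with the cytoplasmic polyadenylation protein gene Cpeb4 at p 1.53e-15. Immediate early genes had them in 3 of 5, namely Homer1, Nr4a1 and Fosl2, with an interval of 23.1 to 88.2% that also includes the share of all bound genes. None of 8 astrocyte and oligodendrocyte genes had one (interval up to 32.4%), though all 8 held a cortex peak elsewhere. None of 10 microglia and endothelial genes did (up to 27.8%), 4 of which held a cortex peak. Both intervals include the 19.4% of all long coding genes in cortex, so these groups are too small to show an absence. None of the 4 neuroblastoma and sympathoadrenal genes over 20 kb had a start peak in either list (up to 49.0% in each), while 3 held a cortex peak and 3 an N2A peak elsewhere.

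In N2A the same groups held few start peaks, against a background of 0.956% of all long coding genes and 4.57% of bound ones. Tra2a and Hnrnpd were the 2 of 13 hnRNP and SR genes, Rbfox2 and Nova1 the 2 of 21 neuronal splicing regulators, and Setd5 and Arid1b the 2 of 41 elongation and chromatin regulators. Ago2 of 24 decay factors, Rbm25 of 15 spliceosome genes, Syn2 of 28 presynaptic genes and Cpeb4 of 20 translation factors were the only others, and all intervals were wide. All 10 of these genes also had a cortex start peak, against 77 of all 96 N2A genes with a start peak (80.2%). Rbfox2, Nova1, Setd5, Arid1b, Ago2 and Rbm25 are named because the counts are small, after their values were seen.

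**Figure D5:**
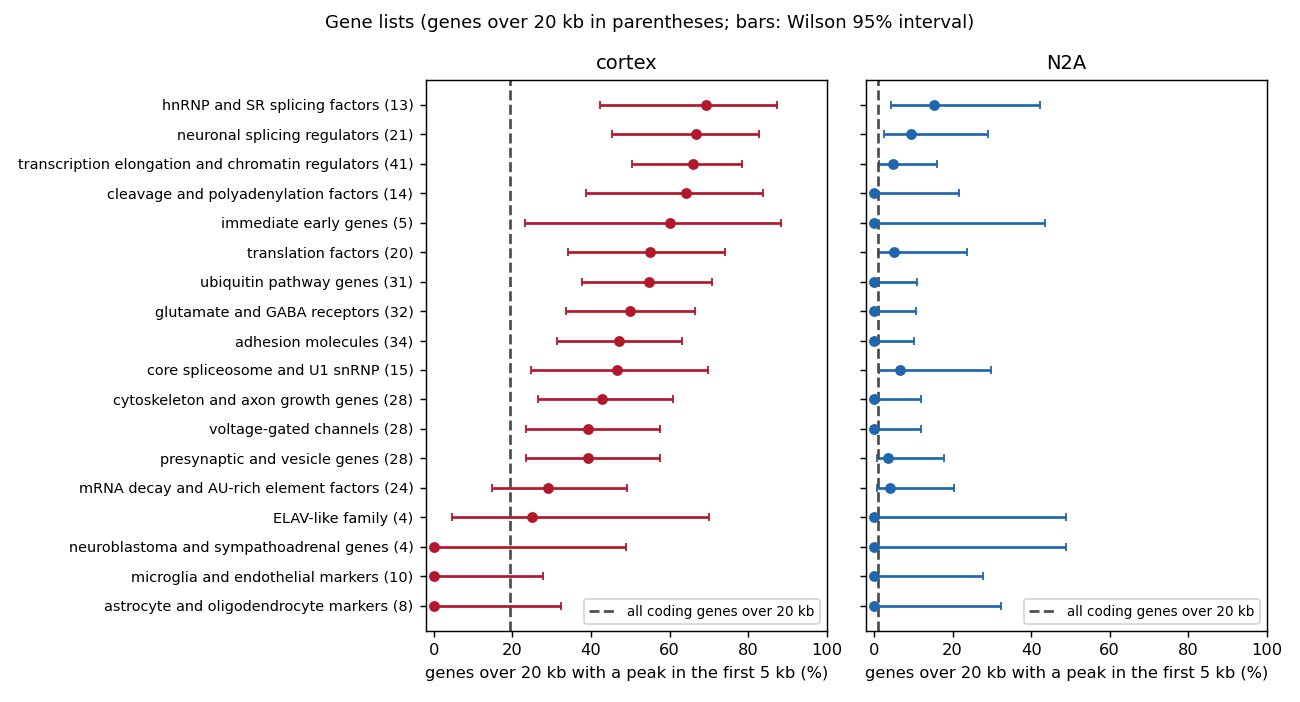
Percent of genes over 20 kb with at least 1 peak in the first 5 kb (horizontal axis) for 18 gene groups (rows, with the number of genes), for cortex on the left and N2A on the right. Points are shares, whiskers Wilson 95% intervals, and the dashed line is the share of all coding genes over 20 kb, 19.4% in cortex and 0.956% in N2A. The hnRNP and SR splicing factors reach 69.2% in cortex, and glial, microglial and neuroblastoma groups are at 0 in both lists.

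Some start peaks lay on the strand opposite to their gene, and this was more frequent than elsewhere in genes. Because the start was read on the peak's own strand, such a peak lies near the annotated end of the gene. Where the reference lists a strand, 113 of 2604 cortex start peaks (4.34%, 3.62 to 5.19) and 5 of 95 in N2A (5.26%, 2.27 to 11.7) were of this kind, against 0.505% of interior peaks in cortex and 1.79% in N2A. In the first kb the shares were 27 of 238 in cortex (11.3%, 7.91 to 16.0) and 3 of 20 in N2A. From kb 1 to 5 they were 86 of 2366 (3.63%) and 2 of 75. Such a share also depends on the number of peaks on the gene's strand, which was low in the first kb of cortex. Counting also genes whose strand was taken from most peaks, there were 129 such peaks in 83 cortex genes and 6 in 5 N2A genes. In genes without a listed strand the start peaks themselves help to set it, so this count can miss some. For 50 of the 129 cortex peaks (38.8%) and 3 of the 6 in N2A, a neighbouring coding gene on the peak's strand ended within 5 kb before the span. No share of all long coding genes with such a neighbour stands beside this, and whether these peaks belong to the neighbours was not tested. A peak at the gene Atg7 lay 161.5 nt inside its span in N2A, and the neighbour Vgll4 ended 17 nt before it. The N2A peak of Setd1b, opposite to most peaks of that gene (p 1.44e-05 at 3466.5 nt), which overlapped a cortex peak, had the gene Hpd ending 3177 nt before the span. Mvp, the major vault protein gene, had its N2A peak on the other strand too, at 4747.5 nt with p 6.41e-06 and no such neighbour.

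Noncoding genes overlapped 143 of the 3266 cortex start peaks (4.38%) and 4 of the 112 in N2A (3.57%), against 3.82% and 3.64% of later peaks. Strand was not used for this overlap: in cortex 46 of the overlaps were on the strand of the noncoding gene, 46 on the opposite one and 53 with a noncoding gene whose strand is not listed. In cortex the overlapping genes were lncRNAs for 130 peaks, pseudogenes for 9 and snoRNA genes for 3, and all 4 N2A peaks lay in lncRNA genes. None overlapped a miRNA gene. The strongest cortex start peak of all was of this kind: its coding span is Rtl1, but it lies at chr12:109564870-109564921 on the + strand, in the maternally expressed lncRNA gene Meg3, with p 4.45e-307. All 9 peaks counted for Rtl1 lay on that strand within Meg3, while Rtl1 is known to be transcribed in the opposite direction. In Ube3a, the ubiquitin ligase gene of Angelman syndrome, 5 of the 7 start peaks lay on the − strand, in Snhg14, whose transcript runs antisense through Ube3a in neurons. The strongest of these had p 1.19e-85, while the 2 peaks on the strand of Ube3a had p 7.58e-07 and 0.000862. In Chd2, 3 of the 7 start peaks also lay in Chaserr, the lncRNA gene next to it on the same strand, including the strongest at p 2.66e-38, so those 3 cannot be given to 1 of the 2 genes. Pkd1 followed, with a peak on the strand of the lncRNA gene at p 4.10e-32, and then Cacng2, with a peak antisense to the lncRNA gene it overlaps at p 5.31e-28. The N2A cases included Efr3a, Mcmdc2 and Hnrnpd.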

How the data were processed

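Elavl HITS-CLIP peaks were analysed from 1 list for the 3 cortex samples and 1 for the N2A sample. In each deposited file a peak has a position, a strand and a p-value from 0 to under 0.1, which the authors' peak calling made. The caller, its filters, adjustment of p and pooling of samples were not given in the sources used here. Per the submitters' processing notes reads were handled with Novoalign, and hg19 is named, although the chromosome names are mouse. Of cortex and N2A peaks 94.8% and 94.5% touched a GRCm38.p6 coding span, and coordinates were read as that build, with no statement on whether they count from 0 or 1.

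Peaks were assigned with pandas 2.3.3 and numpy 2.4.6 in Python 3.11.15. Wilson, Newcombe and exact Clopper-Pearson intervals at the 95% level came from scipy 1.17.1, and figures from matplotlib 3.10.9. Gene strand was that of the RefSeq start table, otherwise that of most peaks. The assignment and intervals were tested on simulated data. Named genes are, per list, the 10 with the most start peaks and the 10 with the lowest p, the 10 strongest in both lists, up to 4 per gene group, the 3 nearest each side of the limit and up to 5 in noncoding genes. The members, groups and tests were chosen with earlier results of these data known. Depth is unknown, so no limit of detection is given. Alternatives changed the p threshold, window, gene length, strand, overlap and start used.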

Additional observations from a re-analysis of the deposited data

How the results depend on the processing

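The share of start peaks among peaks of long genes (3.84% in cortex, 2.18% in N2A) became 3.49% and 1.37% for peaks with p under 0.01, 1.10% and 0.953% for a window of 2 kb, 2.72% and 1.62% for genes over 50 kb, and 4.29% and 2.63% when measured from the most upstream listed start, an alternative chosen after seeing the data. With the peaks of the last 5 kb left out, also chosen after seeing the data, it was 4.56% and 9.003%, so that the larger share was that of N2A. On the strand of the gene alone it was 3.71% in cortex. The density of the first 5 kb over kb 5 to 20 stayed between 0.845 and 0.867 in cortex. In N2A it was 0.955, became 0.781 for p under 0.01, and turned to 1.31 for genes over 50 kb. The share of genes with a start peak became 10.7% in cortex and 0.369% in N2A for p under 0.01, and 22.8% in cortex for genes over 50 kb. The N2A difference in strong peaks from later positions was −10.8 points for genes over 50 kb (−23.8 to 3.36), and no difference in strong peaks changed sign. The overlap with the other list became 2.14% in cortex and 59.8% in N2A for midpoints within 200 nt, and 0.877% and 34.2% for p under 0.01. Fewer peaks or genes enter most of these alternatives by construction; other causes were not tested. No paired analysis was possible because N2A has 1 sample and the cortex list carries no replicate, and for the same reason no sample could be left out. Read depth is unknown, which limits every statement on genes without a peak.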
